A study of Homo sapiens with 6 samples.

Results

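The variant histone genes H1-10, H2AZ1, H2AZ2, H2AX, H2AJ, MACROH2A1, MACROH2A2, H3-3A and H3-3B were followed in RNA-sequencing libraries of U251 cells, an established human glioma line, with and without knockdown of the transcription factor gene TEAD3. They are 9 of the 60612 genes in the count table, chosen by name, with no measured value in the rule but with earlier results of these data known, and 8 of the 9 passed the filter on low counts. There were 3 control libraries, labelled as normal control, and 3 TEAD3 knockdown libraries. Both groups are the same cell line. The knockdown was transient, and the labels mention a plasmid vector as well as an siRNA, without saying what the controls received. They also do not say that replicates were separate cultures, so p-values here cover the spread between libraries alone, and that spread could be technical. Where values of single libraries are listed, they stand in the order of replicates 1, 2 and 3. In bulk RNA, fewer cells with a transcript and less of it per cell cannot be told apart.

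Most histone proteins are made in S phase from clustered genes without introns, whose transcripts end in a stem-loop in place of a poly(A) tail. The variants described here are made throughout the cell cycle from genes that lie outside the clusters. Their transcripts are polyadenylated, apart from a short form of H2AX described below, so capture on oligo(dT) beads retains the polyadenylated forms. H3.3 marks active genes and, at other sites, silent repeats. H2A.Z sits at promoters and enhancers, phosphorylated H2AX marks DNA breaks, macroH2A is linked to stable silencing, and H1-10 is a linker histone.

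H2AX differs from the other members in that its transcript is known in a short form ending at a stem-loop and in a longer polyadenylated form. The stem-loop consensus, searched on the sense strand, was found in annotated GENCODE 29 transcripts of 1 of the 9 members, H2AX, and of 32 of 68 replication-dependent genes (47.1%). How far the annotated transcripts of the other genes reach past the stop codon was not measured. In H2AX it lies 49 bases after the stop codon, with 1044 bases of transcript beyond it. It is shown beside that of H2AC6, a clustered H2A gene described below, with the 16-base stem-loop in capitals:
H2AX: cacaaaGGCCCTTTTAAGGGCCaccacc
H2AC6: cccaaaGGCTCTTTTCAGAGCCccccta

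H3.3 and H2A.Z are each made from a pair of genes that start from separate promoters. H3-3A and H3-3B code for the same protein, with coding sequences of 411 bases that are identical at 78.6% of positions. H2AZ1 and H2AZ2 code for near-identical proteins, with coding sequences of 387 bases identical at 80.4%. The ratios within these pairs are compared below, so a RefSeq promoter window of each gene is printed. Each window (build GRCh38.p14, on the gene's strand) runs from 250 bases before to 50 after the annotated start. The windows are chr1:226062466-226062765 (plus strand, the last of 4 listed for the gene), chr17:75779730-75780029 (minus), chr4:99950226-99950525 (minus) and chr7:44848038-44848337 (minus). Capitals mark CCAAT and GGAATG on either strand, the CCAAT box and the core of the motif bound by TEAD proteins:
H3-3A: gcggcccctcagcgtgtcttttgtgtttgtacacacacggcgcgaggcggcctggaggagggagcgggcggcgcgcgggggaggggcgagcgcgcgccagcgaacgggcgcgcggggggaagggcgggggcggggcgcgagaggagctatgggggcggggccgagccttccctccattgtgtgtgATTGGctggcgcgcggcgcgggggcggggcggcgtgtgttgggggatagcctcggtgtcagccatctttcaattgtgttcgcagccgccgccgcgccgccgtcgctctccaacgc
H3-3B: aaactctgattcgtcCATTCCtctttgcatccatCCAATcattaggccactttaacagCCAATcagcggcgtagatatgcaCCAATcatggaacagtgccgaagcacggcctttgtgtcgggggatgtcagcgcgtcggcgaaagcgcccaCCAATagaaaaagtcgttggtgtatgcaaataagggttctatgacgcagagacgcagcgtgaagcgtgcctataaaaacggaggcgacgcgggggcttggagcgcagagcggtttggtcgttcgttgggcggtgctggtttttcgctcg
H2AZ1: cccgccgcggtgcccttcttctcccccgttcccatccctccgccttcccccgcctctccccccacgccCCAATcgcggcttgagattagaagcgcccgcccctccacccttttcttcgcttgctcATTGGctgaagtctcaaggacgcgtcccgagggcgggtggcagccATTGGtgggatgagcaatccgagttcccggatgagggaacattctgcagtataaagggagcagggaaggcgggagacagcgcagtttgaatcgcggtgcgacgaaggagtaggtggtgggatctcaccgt
H2AZ2: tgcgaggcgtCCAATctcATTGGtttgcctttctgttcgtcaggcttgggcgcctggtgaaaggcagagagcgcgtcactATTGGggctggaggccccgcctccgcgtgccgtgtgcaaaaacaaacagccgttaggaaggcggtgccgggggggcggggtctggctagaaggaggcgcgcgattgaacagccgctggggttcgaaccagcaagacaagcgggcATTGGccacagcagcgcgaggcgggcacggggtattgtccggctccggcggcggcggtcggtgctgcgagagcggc

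All 9 members matched the promoter table. The 9 have 13 windows in all, since some have several. CCAAT (or ATTGG) was in 9 of the 13 windows, from 7 members, and in 34.6% of all 35116 windows. GGAATG (or CATTCC) was in 2 of the 13, those of H3-3B and H2AJ, and in 14% of all windows, so its share among the members was near that of all windows. These matches describe the letters only.

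The knockdown was seen in the TEAD3 transcript, which was at 14.9, 20.3 and 21.0 CPM (counts per 1000000 counts of a library, with TMM scaling) in controls against 4.70, 8.35 and 6.08 CPM after knockdown (log2 fold change -1.55, SE 0.218, edgeR adjusted p = 0.0114). The call was lost, with folds of similar size, without control replicate 3 (-1.46, adjusted p = 0.0541), knockdown replicate 1 (-1.37, 0.0532) or knockdown replicate 3 (-1.52, 0.0938). Total counts lay between 58344026 and 64808615 per library, so 3 counts correspond to between 0.0463 and 0.0514 CPM, a floor for counting error only. Of 6 glioma markers, VIM, NES, CD44 and SOX2 were detected at 114 CPM or more in every library and GFAP and S100B at 1.80 CPM or below. Their summed level, mostly VIM, was 5271 to 5832 CPM in controls and 4340 to 4894 CPM after knockdown, and its part in the results was not tested. Summed epithelial, leukocyte and endothelial markers were each at most 2.23 CPM, and the pair of neuronal markers at 15.6 to 18.6 CPM in controls and 16.1 to 18.3 CPM after knockdown, nearly all of it SYT1, while RBFOX3 had 15 counts in all libraries together. Libraries differed in how their levels followed GC content and transcript length. With GC content, the Spearman correlation across 17505 genes, which are not independent replicates, was -0.407 in control replicate 1 and 0.497 in control replicate 2, and between -0.153 and 0.111 elsewhere. With length it was 0.172, -0.0389 and 0.196 in controls against -0.225, -0.0628 and -0.0318 after knockdown, and the fold change itself had a correlation of -0.198 with length over 13690 protein-coding genes. Values corrected for both are therefore given for each tested member, and the part of length in the results was not tested beyond that correction.

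None of the 8 tested members was called different between groups at an edgeR adjusted p under 0.05, the threshold for a call here, where 0.655% of all 17723 genes tested were (80 higher and 36 lower, the latter 0.203%; 230 higher and 323 lower after the length and GC correction). H3-3A, MACROH2A2 and H2AZ2 were lower at an unadjusted p under 0.05, against 7.43% of all genes, and no member was higher at that level, against 8.15% of all genes. Nor did DESeq2 call a member, where it called 3.42% of its tested genes higher and 2.69% lower, and limma-voom called none either. The fold changes were below 0 for 5 members and above 0 for 3, with a median of -0.19, and the median over all genes tested was -0.0012. In 4 members, H3-3A, H2AZ2, MACROH2A1 and MACROH2A2, each knockdown library lay below each control library, which was the case for 10.6% of all genes. The 9 genes together took between 0.148% and 0.159% of the counts in controls and between 0.139% and 0.160% in the knockdown.

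**Figure D1:**
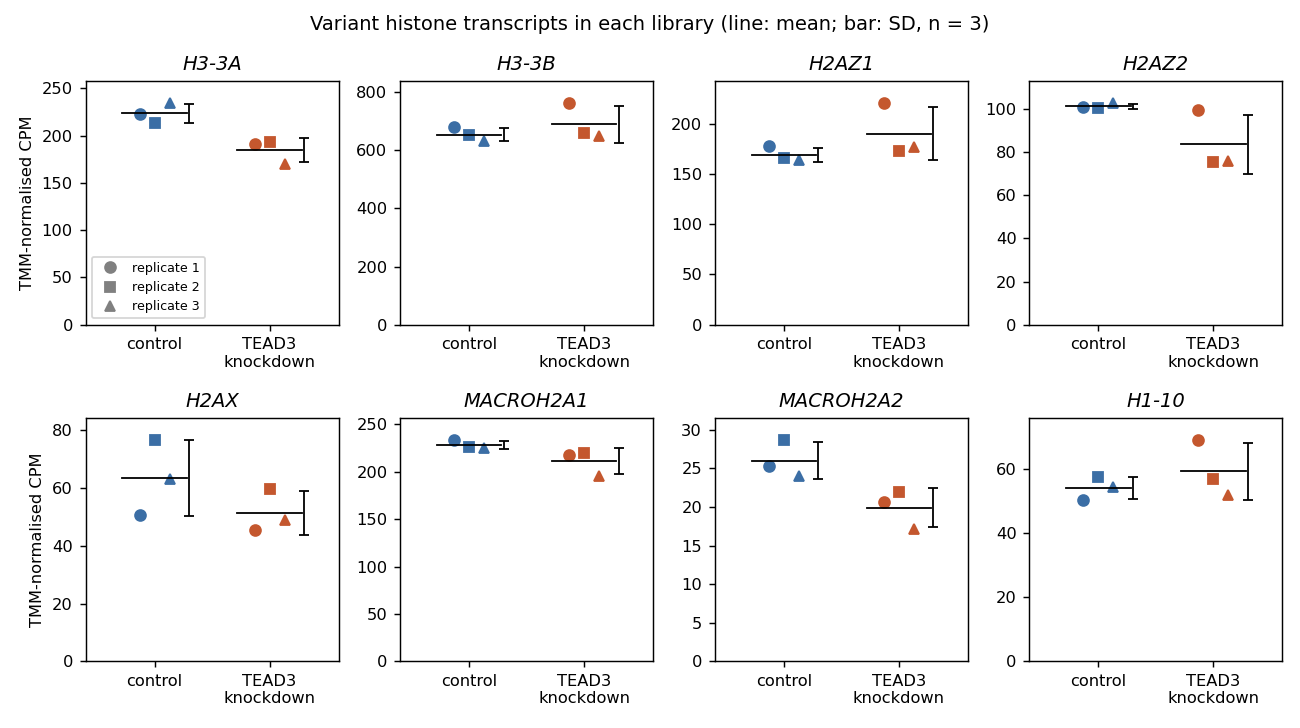
Level of each tested variant histone transcript (vertical axis, TMM-normalised CPM from 0) in the 3 control and 3 TEAD3 knockdown libraries; symbols give the replicate number, the line the mean and the bar the SD. The groups do not overlap for H3-3A, H2AZ2, MACROH2A1 and MACROH2A2, and knockdown replicate 1 is the highest library for H3-3B, H2AZ1 and H1-10.

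H3.3 is the H3 variant that the HIRA complex and the DAXX-ATRX pair place into chromatin outside replication. H3-3A (ENSG00000163041, GRCh38 chromosome 1 from 226061851 to 226072001, plus strand) was at 223, 214 and 234 CPM in controls against 191, 193 and 170 CPM after knockdown. Its means were 224 ± 10.3 and 185 ± 12.8 CPM (SD, n = 3 each), so every knockdown library was low, by a gap larger than either SD. The log2 fold change was -0.28 with SE 0.0956 (fold 0.826, 95% interval 0.714 to 0.956), short of a call with an edgeR adjusted p = 0.205. After the length and GC correction H3-3A was called lower, at -0.40 (edgeR adjusted p = 0.0452).

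H3-3B (ENSG00000132475, chromosome 17 from 75776434 to 75785893, minus strand) was the most abundant member. It was at 679, 650 and 632 CPM in controls against 761, 658 and 647 CPM after knockdown. Only knockdown replicate 1 exceeded the controls, and the groups overlapped. The log2 fold change was 0.08 with SE 0.0981 (95% interval of the fold 0.907 to 1.22, edgeR adjusted p = 0.776), and it was 0.00042 without knockdown replicate 1 and 0.12 without knockdown replicate 3. It was 0.09 after the length and GC correction.

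Within each library the ratio of H3-3A to H3-3B counts does not depend on scaling between libraries. It can still follow the trends of a library with length and GC content. On the log2 scale it was -1.61, -1.61 and -1.43 in controls against -1.99, -1.77 and -1.93 after knockdown. H3-3A therefore gave 25.5% ± 1.35 of the counts of the pair in controls and 21.2% ± 1.33 in the knockdown (SD, n = 3 each), shares of counts that do not allow for transcript length. The groups did not overlap, and the difference in log2 ratio was -0.35, with an exact two-sided permutation p = 0.1, the smallest that 3 against 3 libraries can give (adjusted over the 3 ratios compared, 0.1). Over all alternatives run, among them the length and GC correction, this difference lay between -0.48 and -0.29. The summed level of both genes was 877 ± 21.2 CPM in controls against 873 ± 70.5 CPM after knockdown, a difference smaller than the spread.

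Copies of H3-3A elsewhere in the genome bear on these counts. The processed pseudogene H3P6 is identical to H3-3A transcript sequence over all of its 411 bases, and H3P16 over 99.3%, so reads can be split between them and H3-3A. H3P6 was at 15.3 ± 1.85 CPM in controls against 12.9 ± 0.576 CPM after knockdown (log2 fold change -0.25, edgeR adjusted p = 0.433). With pseudogene counts added to the member they most resemble, the H3-3A fold change was -0.27 and the difference in log2 ratio -0.35.

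H2A.Z is exchanged into nucleosomes by the SRCAP and EP400 complexes. H2AZ1 (ENSG00000164032, chromosome 4 from 99948086 to 99950388, minus strand) was at 177, 166 and 164 CPM in controls against 220, 173 and 177 CPM after knockdown. Knockdown replicate 1 was high and the other two lay within the control range, with a log2 fold change of 0.17 and SE 0.111 (95% interval of the fold 0.949 to 1.33, edgeR adjusted p = 0.505), which was 0.05 without knockdown replicate 1. Corrected for length and GC content it was 0.10.

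H2AZ2 (ENSG00000105968, chromosome 7 from 44826791 to 44848083, minus strand) was at 101, 100.2 and 103 CPM in controls against 99.4, 75.5 and 75.8 CPM after knockdown. Knockdown replicates 2 and 3 were low and replicate 1 lay just below the controls. The log2 fold change was -0.28 with SE 0.119 (95% interval of the fold 0.688 to 0.990, edgeR adjusted p = 0.298), and it was -0.42 without knockdown replicate 1. After the length and GC correction it was -0.27 and the groups overlapped, with control replicate 1 at 94.3 CPM and knockdown replicate 1 at 98.8 CPM.

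The ratio of H2AZ1 to H2AZ2 had the smallest spread of the 3 ratios in the knockdown libraries. On the log2 scale it was 0.81, 0.73 and 0.68 in controls against 1.15, 1.20 and 1.22 after knockdown. H2AZ1 gave 62.5% ± 1.14 of the counts of the pair in controls and 69.5% ± 0.548 in the knockdown. The difference in log2 ratio was 0.45, above the SDs of 0.0702 and 0.0372, with the same smallest exact permutation p = 0.1, and it lay between 0.42 and 0.49 whichever library was left out. Over all alternatives run, among them the length and GC correction, the range was 0.37 to 0.49. The summed level was 270 ± 6.79 CPM in controls against 274 ± 39.9 CPM after knockdown.

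**Figure D2:**
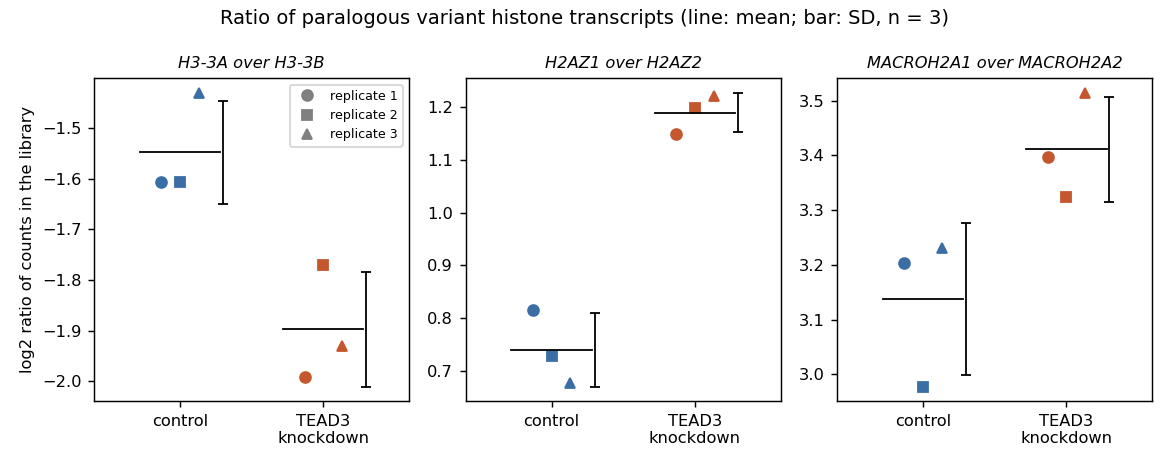
Log2 ratio of the counts of paralogous variant histone genes within each library (vertical axis), for 3 control and 3 TEAD3 knockdown libraries; the line is the mean, the bar the SD, and each panel has its own range. In all 3 pairs the groups do not overlap: H3-3A over H3-3B is lower in the knockdown, and H2AZ1 over H2AZ2 and MACROH2A1 over MACROH2A2 are higher. Among single genes 21.6% do not overlap in either direction, and the share among other gene pairs was not computed.

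H2AX (ENSG00000188486, chromosome 11 from 119093854 to 119095467, minus strand), the carrier of the stem-loop shown above, was at 50.6, 76.6 and 63.1 CPM in controls against 45.3, 59.7 and 48.8 CPM after knockdown. Controls spread widely and control replicate 1 lay among the knockdown libraries. The log2 fold change was -0.31 with SE 0.157 (95% interval of the fold 0.637 to 1.03, edgeR adjusted p = 0.377), and it was -0.15 without control replicate 2. H2AX is rich in GC (66.4% of the transcript), and the order of its control levels was that of the GC trends of those libraries. After the length and GC correction the controls were at 59.4, 68.6 and 69.9 CPM and the knockdown libraries at 41.7, 58.8 and 46.1 CPM, with no overlap (log2 fold change -0.43, edgeR adjusted p = 0.0861).

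The summed level of the 68 replication-dependent histone genes lay on the other side. It was at 171, 204 and 173 CPM in controls against 310, 271 and 322 CPM after knockdown. By edgeR 6 of the 34 that passed the filter were called higher, against 0.451% of all genes, and none lower. Between 4 and 7 were called higher when single libraries were left out. The 6 include HIST2H2AA3 and HIST2H2AA4 (log2 fold change 1.28 each), and H4C14 and H4C15 (1.87 and 1.88). The genes of each pair may share reads, so the 6 may not be separate signals. Before adjustment 13 were higher at p under 0.05, against 8.15% of all genes, and none lower. With DESeq2 the number called higher was 10, against 3.42% of its tested genes. H2AC6 rose from 13.2 ± 0.889 to 49.2 ± 7.62 CPM (1.9 on the log2 scale, edgeR adjusted p = 0.000181), the H4 gene H4C14, which has a near-identical copy, from 3.82 ± 0.279 to 14.0 ± 2.41 CPM (1.87, 0.00113) while H1-2, a replication-dependent linker histone, went from 11.3 ± 0.767 to 29.2 ± 3.67 CPM (1.38, 0.00129). RNAs without a poly(A) tail are reported beside these genes because most clustered histone transcripts lack one too. The 5 followed were summed at 32.7, 78.5 and 36.1 CPM in controls against 117, 36.2 and 161 CPM after knockdown, with overlap, and all 5 had fold changes above 0, with no call by edgeR or DESeq2 and 3 higher at p under 0.05 before adjustment. RN7SL1, which serves in protein export, was at 14.7, 34.5 and 17.6 CPM in controls against 60.8, 14.4 and 79.8 CPM after knockdown (log2 fold change 1.22, edgeR adjusted p = 0.264), and the part of such RNAs in the histone values was not tested, apart from a fit with them as a covariate, in which 4 clustered genes were called higher. The difference between H2AX and the clustered genes was itself not tested.

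MacroH2A carries a large globular domain behind its H2A part. MACROH2A1 (ENSG00000113648, chromosome 5 from 135333900 to 135399914, minus strand) was at 234, 226 and 225 CPM in controls against 218, 220 and 196 CPM after knockdown. The groups did not overlap, but the gap was small, with a log2 fold change of -0.11 and SE 0.0919 (95% interval of the fold 0.805 to 1.06, edgeR adjusted p = 0.615). It was -0.06 without knockdown replicate 3, and -0.17 after the length and GC correction. Its splice forms macroH2A1.1 and macroH2A1.2, known to differ in binding of ADP-ribose, are counted together here.

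MACROH2A2 (ENSG00000099284, chromosome 10 from 70052796 to 70112280, plus strand) was at 25.3, 28.7 and 24.0 CPM in controls against 20.7, 22.0 and 17.1 CPM after knockdown. Its fold change was -0.38 on the log2 scale with SE 0.133 (fold 0.767, 95% interval 0.626 to 0.939), and it missed the call with an edgeR adjusted p = 0.207. Corrected for length and GC content it was -0.43 (edgeR adjusted p = 0.0608). The log2 ratio of MACROH2A1 to MACROH2A2 was 3.20, 2.98 and 3.23 in controls against 3.40, 3.32 and 3.51 after knockdown, a difference of 0.27 with the same smallest exact permutation p = 0.1. Over all alternatives run that difference lay between 0.19 and 0.32. Unlike the other pairs, the summed level was also lower in every knockdown library, at 231 ± 15.8 CPM against 254 ± 4.93 CPM.

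H1-10 (ENSG00000184897, chromosome 3 from 129314771 to 129316277, minus strand), a linker histone gene with no intron, was at 50.4, 57.5 and 54.5 CPM in controls against 69.2, 56.8 and 51.9 CPM after knockdown. Only knockdown replicate 1 left the control range, and the log2 fold change of 0.13 (SE 0.123, edgeR adjusted p = 0.668) was 0.0097 without it, 0.22 without knockdown replicate 3 and 0.08 without control replicate 1. After the length and GC correction the direction turned, to -0.05 (edgeR adjusted p = 0.84).

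H2AJ (ENSG00000246705, chromosome 12 from 14774383 to 14778002, plus strand), an H2A variant known to gather in senescent cells, was almost without counts. Its counts were 0, 6 and 0 in controls against 4, 0 and 2 after knockdown, and no comparison was made at this depth. The other members had at least 1120 counts in every library.

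**Figure D3:**
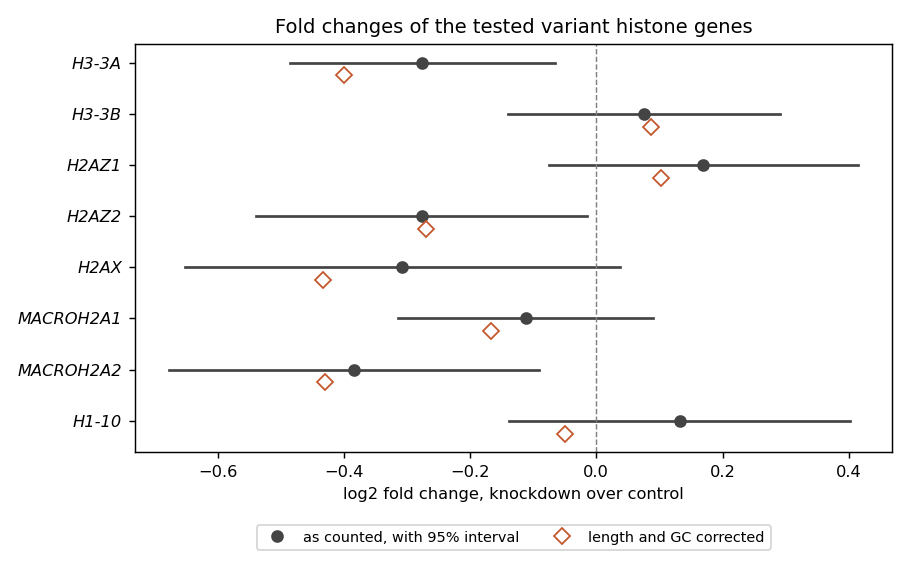
Log2 fold change of the 8 tested members, knockdown over control (horizontal axis), with the 95% interval of the fitted value (filled points) and after correction for transcript length and GC content (open diamonds). H3-3A, H2AZ2 and MACROH2A2 have intervals below 0 before adjustment for the number of genes, and H1-10 changes sign with the correction.

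Levels of different genes were compared per kilobase of annotated exon. In controls H3-3B led with 107 ± 3.87 CPM per kb, followed by H2AZ1 (73.4 ± 3.13) and H3-3A (71.1 ± 3.28), whose ranges overlapped. H2AX (39.3 ± 8.06 CPM per kb) and H1-10 (35.9 ± 2.34) overlapped as well, and H2AZ2 (21.3 ± 0.260) came next. MACROH2A2 (13.1 ± 1.23 CPM per kb) and MACROH2A1 (12.9 ± 0.262) did not differ beyond their spread. With the longest transcript in place of all exons, H3-3A (120 ± 5.55 CPM per kb) was above H2AZ1 (89.9 ± 3.84) and MACROH2A1 (20.8 ± 0.424) above MACROH2A2, so those neighbours depend on the length used. In the knockdown the order by exon length was the same, apart from H1-10 (39.4 ± 5.89) at a higher mean than H2AX (31.7 ± 4.65) and MACROH2A1 (11.9 ± 0.752) at a higher mean than MACROH2A2 (10.1 ± 1.26).

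For each tested member the gene with the most similar profile over the 6 libraries was sought among genes whose average log2 CPM was 5 or more. The measure was the mean absolute difference of log2 CPM centred on each gene's mean. The closest profiles were those of CBR1 to MACROH2A1 (0.0129), BLVRA to H2AZ1 (0.0155) and SEPTIN6 to H3-3A (0.0198). Those of CD59 to H3-3B (0.0236), CASP2 to H2AX (0.0307), CDCA5 to MACROH2A2 (0.0334), SF3B5 to H1-10 (0.0337) and ALDH5A1 to H2AZ2 (0.0705) were farther, and with 5908 candidates or more per member a close match is a description only.

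Exons of 6 members overlap annotated genes on the opposite strand. These are H1-10 (H1-10-AS1), H2AZ1 (H2AZ1-DT), MACROH2A1 (PITX1-AS1 and ENSG00000270021), MACROH2A2 (AIFM2), H3-3A (H3-3A-DT) and H3-3B (UNK), and H3-3B also holds MIR4738 on its own strand. Whether the counting used strand is not given in the sources used here, so reads of these partners may be included.

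Variant histones outside the 9 members were mostly silent. Of 15, 11 did not pass the filter, with at most 5 counts in any library, among them the germ cell histone genes H1-7, H1-8, H2BW1 and H2BW2 with 0 counts. CENPA, the H3 variant of centromeres, was at 10.7, 11.6 and 14.0 CPM in controls against 5.59, 7.17 and 7.26 CPM after knockdown. All knockdown libraries were below all controls, and with a log2 fold change of -0.86 (SE 0.175) it missed the call by edgeR (adjusted p = 0.0582). It was called lower by DESeq2 (adjusted p = 0.000434), after the length and GC correction (-0.97, edgeR adjusted p = 0.0214), with robust dispersions (0.0309), with a minimum of 50 counts (0.0446) and without control replicate 2 (0.0428). CENPA was not called by limma-voom, with other scalings, with no filter or when any other single library was left out. Nor was it called with the replicate number as a block or with RNAs without a poly(A) tail as a covariate.

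The factors that deposit or read the variants had fold changes mostly a little below 0, and edgeR called none of them. Of all genes tested, 50.2% were below 0, and at p under 0.05 before adjustment 8.15% were higher and 7.43% lower. DESeq2 called 3.42% of its tested genes higher and 2.69% lower. Small counts in the lists below are to be read beside these shares. Of 7 H3.3 deposition factors, 5 were below 0 (median -0.05), and before adjustment 1 was higher and 2 lower at p under 0.05, with none called by DESeq2. The median depended on single libraries, at -0.18 without knockdown replicate 2, -0.17 without control replicate 1 and -0.16 without control replicate 2. DAXX, the chaperone that places H3.3 at repeats, averaged 83.5 ± 6.32 CPM in controls against 69.8 ± 2.70 CPM after knockdown (a log2 difference of -0.26, edgeR adjusted p = 0.247). Of 23 H2A.Z exchange factors, 14 were below 0 (median -0.09), and before adjustment 1 was higher and 3 lower at p under 0.05. DESeq2 called 2 lower, and edgeR called 3 lower after the length and GC correction. The median was -0.02 without control replicate 2 and -0.03 without control replicate 1 or knockdown replicate 2, with values of -0.04 without knockdown replicates 1 or 3. ANP32E, the chaperone that removes H2A.Z, averaged 113 ± 11.9 CPM in controls against 84.6 ± 6.87 CPM after knockdown (-0.42, edgeR adjusted p = 0.116). It was called by DESeq2 (adjusted p = 0.0126), after the length and GC correction (-0.51, edgeR adjusted p = 0.00964) and without control replicate 2 (0.0321). ANP32E was not called by limma-voom, with a replicate block, with the covariate or when any other single library was left out.

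Of 11 tested genes for H2AX phosphorylation and its readers, 8 were below 0 (median -0.11), against 50.2% of all genes. At p under 0.05 before adjustment 1 was lower, against 7.43% of all genes, and DESeq2 called none. The median was -0.03 without knockdown replicate 1, -0.06 without control replicate 1, -0.07 without control replicate 3 and -0.17 without knockdown replicate 2. The gene lower before adjustment was BAZ1B, whose product phosphorylates a tyrosine of H2AX, which averaged 222 ± 12.5 CPM in controls against 187 ± 5.22 CPM after knockdown (a log2 difference of -0.24, edgeR adjusted p = 0.239). Of 7 macroH2A-linked factors, 6 were below 0 (median -0.12), with 2 lower at p under 0.05 before adjustment. DESeq2 called 1 of the 7 lower, against 2.69% of its tested genes. The median was -0.20 without control replicate 2, -0.09 without control replicate 1 and -0.08 without knockdown replicate 1. Without control replicate 1, 4 were below 0 and 3 above, and without control replicate 2 or knockdown replicate 2 all 7 were below. PARP1, which makes the ADP-ribose chains bound by macroH2A1.1, averaged 265 ± 10.2 CPM in controls against 210 ± 6.19 CPM after knockdown (-0.34, edgeR adjusted p = 0.118), and was called by DESeq2 (adjusted p = 0.0142) and after the length and GC correction (-0.28, edgeR adjusted p = 0.0477). It was not called by limma-voom, with a replicate block, with the covariate or when any single library was left out.

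Among 22 general histone chaperones, 19 were below 0 with a median of -0.20. Before adjustment 10 were lower and none higher at p under 0.05, against 7.43% of all genes lower. DESeq2 called 4 of the 22 lower, against 2.69% of its tested genes. After the length and GC correction edgeR called 3 lower. SUPT16H, a subunit of the FACT complex that moves H2A-H2B dimers, averaged 151 ± 11.4 CPM in controls against 111 ± 4.88 CPM after knockdown (a log2 difference of -0.44, edgeR adjusted p = 0.0726). It was called by DESeq2 (adjusted p = 0.00193), after the length and GC correction (-0.40, edgeR adjusted p = 0.0183) and without control replicate 2 (0.0275). SUPT16H was not called by limma-voom, with a replicate block, with the covariate or when any other single library was left out.

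S phase genes, given because the clustered histone genes are active in that phase, had 16 of 17 fold changes below 0 and a median of -0.30. By edgeR none was called, and 11 were lower and none higher at p under 0.05 before adjustment, against 7.43% of all genes lower. DESeq2 called 6 lower, against 2.69% of its tested genes, and edgeR called 4 lower after the length and GC correction. TYMS, which encodes thymidylate synthase, averaged 239 ± 21.7 CPM in controls against 165 ± 21.9 CPM after knockdown (a log2 difference of -0.54, edgeR adjusted p = 0.0719). It was called by DESeq2 (adjusted p = 0.000949), with robust dispersions (edgeR adjusted p = 0.0399), after the length and GC correction (-0.63, 0.02) and without control replicate 2 (0.034). TYMS was not called by limma-voom, with a replicate block, with the covariate or when any other single library was left out. The part of S phase genes in the levels of the members was not tested.

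**Figure D4:**
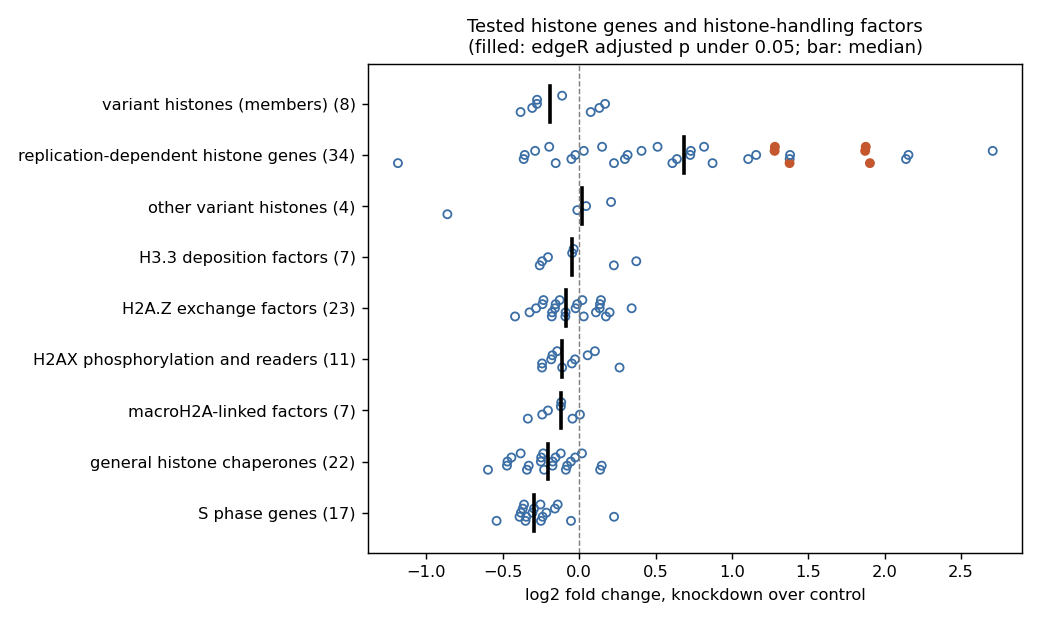
Log2 fold changes, knockdown over control (horizontal axis), of the tested genes of each list, with the number tested in brackets, the median as a bar and genes called by edgeR filled. Filled points appear only among the replication-dependent histone genes, and the 8 variant histone members lie between -0.38 and 0.17.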

How the data were processed

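RNA of 6 libraries (3 control, 3 TEAD3 knockdown) was compared from whole-number counts per Ensembl gene that the authors deposited, unscaled. The tools named, per the submitters' processing notes, were HISAT2 2.0.4, StringTie 1.3.4d, cutadapt 1.9, edgeR and DESeq2, with build GRCh38. What each did, the annotation, and how multi-mapped reads were treated is not given in the sources used here, so the counts may be rounded estimates. Of 60612 identifiers, 60401 matched a symbol and 58394 were in GENCODE 29, the source of coordinates, lengths and transcript sequences.

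Differential expression was tested in R 4.3.3 with edgeR 4.0.16 (quasi-likelihood F test, TMM, filterByExpr with a minimum of 10 counts, group as the only term, two-sided, Benjamini-Hochberg over 17723 genes). Alternatives used DESeq2 1.42.0, limma 3.58.1 (voom), other scalings and filters, robust dispersions, a replicate block, single libraries left out, a covariate of RNAs without a poly(A) tail, and a per-library loess on transcript length and GC content (span 0.3, 98.8% of the genes). The addition of pseudogene counts was chosen after seeing the data. Paralog ratios were compared by an exact permutation test over libraries. The fits were also run on simulated counts with planted folds larger than those of the members and no trend with GC content or length. That run gives no measure of how well changes of the members' size are detected. Depth was between 58344026 and 64808615 counts per library.

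The members and lists were chosen with earlier results of these data known. Genes named outside the members are, for each list, the called genes with the smallest adjusted p (at most 3) or else the gene with the smallest p, and the most similar profile to each member. H3P16, HJURP and the genes listed at 0 were named after their values were seen.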

Additional observations from a re-analysis of the deposited data

How the results depend on the processing

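No member was called in any alternative except H3-3A after the length and GC correction (-0.40, edgeR adjusted p = 0.0452). H1-10 turned to -0.0504 (0.84) under that correction, and the directions of the other 7 tested members and of the 3 paralog ratios held in every alternative run. RN7SL1 turned to -0.0408 with the covariate of RNAs without a poly(A) tail, which includes it. The count of called genes, 116, was 31 with no filter, 553 after the length and GC correction, 872 by DESeq2, 197 with robust dispersions, 25 with the covariate and between 20 and 589 when single libraries were left out (20 without knockdown replicate 3, 589 without control replicate 2). The causes were not tested. TEAD3 was not called with no filter (edgeR adjusted p = 0.0639), with the covariate (0.0582), or without control replicate 3 (0.0541) or knockdown replicates 1 (0.0532) and 3 (0.0938).

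With the replicate number as a block, 63 genes were called and no member was. The correlations of same-numbered deviations were 0.0183, -0.0496 and -0.0055, and only control replicate 1 correlated best with its own number. In both groups the trend with GC content was lowest in replicate 1 and highest in replicate 2. It was -0.407 and 0.497 in controls and -0.0951 and 0.111 in the knockdown. The trend with length had no such shared order. Whether libraries of the same number share a batch was not tested. Taken within numbers, the paralog ratio differences had an exact sign-permutation p = 0.25, the smallest that 3 pairs allow. Depth limits only H2AJ among the members.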

Other observations

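HJURP, the chaperone that places CENPA at centromeres, was named after its values were seen. It was at 45.2, 36.5 and 45.6 CPM in controls against 23.3, 32.0 and 28.9 CPM after knockdown. All knockdown libraries lay below all controls, with a log2 fold change of -0.60 and SE 0.142, and it was not called by edgeR (adjusted p = 0.0922) but was by DESeq2 (adjusted p = 0.00338). Of the 15 annotated pseudogenes of the members, 7 had no count in any library, and all 15 together were at 18.5, 21.9 and 19.2 CPM in controls against 17.1, 17.3 and 16.5 CPM after knockdown.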
